A study of Mus musculus with 33 samples.

Results

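The regions described here are those that held no clear ChIP signal for Gata4, Mef2c or Tbx5 in a table of candidate binding regions, and they are called the unenriched regions below. They were chosen by measured values. Counts were summed over the libraries of each of 6 ChIP groups and over all 9 inputs, scaled to CPM, the usual depth-normalised count taken here over the summed total, and enrichment was log2 of ChIP CPM plus 5 over input CPM plus 5. A region was kept if its enrichment was below the limit of 0.58 on this scale, a 1.5-fold excess over input, in every group. This selected 10106 of 30815 regions (32.8%). Because the rule used these values, the enrichments of the selected regions are given as a description, with no test.

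The series mapped the 3 factors by sequencing immunoprecipitated chromatin (ChIP-seq) in an immortalised line of cardiac fibroblasts from newborn mice. The cells were of the Cd-1 strain with the alpha-MHC-GFP genotype, expressed a large T antigen that Cre can excise, and were harvested unsorted on day 2 of reprogramming. In all groups they were cultured with the inhibitors sb431542 (TGF-beta signalling) and xav939 (Wnt signalling) after infection with retroviruses. Cells infected with Gata4, Mef2c and Tbx5 together gave 6 Gata4, 4 Mef2c, 4 Tbx5 and 6 input libraries. Single-factor cells gave 4 Gata4, 3 Mef2c and 3 Tbx5 libraries, and each of the 3 has its own lone input. ChIP libraries are biological replicates per the labels, all of them come from a single cell line, and no gene expression was at hand to check the cell type.

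Gata4 is a zinc-finger factor that binds GATA sequences, Mef2c is a MADS-box factor that binds A/T-rich sequences, and Tbx5 is a T-box factor. Together they can drive fibroblasts toward a cardiomyocyte-like state. Each factor was precipitated with its own antibody, so factor and antibody differ together. Input is sheared chromatin that was not precipitated. Its counts follow DNA copy number, how easily a stretch breaks and how well its reads map, and ChIP counts are read against it. A region below input in a ChIP library holds a smaller share of that library than of input. It need not have lost anything, since strongly bound regions take up part of the fixed library total.

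Across the 33 libraries, total counts over the regions ran from 97474 to 2377616. Gata4 libraries 1 and 6 from cells with all 3 factors agree within sampling noise over the regions, as do inputs 1 and 3 and inputs 2, 4 and 5 of the same cells, and each set was counted as 1 sample in tests. The library labelled Gata4 alone number 4 lay close to the inputs and was not used by the rule. Its median log2 enrichment at the regions past the limit for Gata4 alone was -0.04, where the 9 inputs ran from -0.11 to 0.06 and the summed libraries 1 to 3 had at least the limit. The libraries of cells with all 3 factors also differed in counts at the 5 regions of chromosome Y, none of them unenriched by the rule. Inputs 1, 3 and 6 had 7, 12 and 7 counts there, inputs 2, 4 and 5 had 0, 2 and 0, and the inputs of Gata4, Mef2c and Tbx5 alone had 8, 9 and 3.

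Most of the unenriched regions lay below input in every ChIP group. The median log2 enrichment over the 10106 regions was -1.09 for Gata4 with all 3 factors and -1.06 for Gata4 alone. It was -1.63 for Mef2c with all 3 factors and -1.84 for Mef2c alone, and -1.45 and -1.31 for Tbx5. Input exceeded ChIP 2.13-fold at the median for Gata4 with all 3 factors and 3.57-fold for Mef2c alone. Mef2c alone was the group with the lowest median among the unenriched regions and also over all 30815 regions, at -1.40. In 6126 regions (60.6%) all 6 values were below 0, and 2908 (28.8%) reached input in exactly 1 group. A further 801 did so in 2 groups, 220 in 3, 44 in 4 and 7 in 5, and 0 did so in all 6.

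The highest of a region's 6 values showed no break at the limit of the rule. It ran from -1.72 upward, with 1151 regions below -1, 4975 between -1 and 0, 1636 between 0 and 0.25 and 2344 between 0.25 and the limit. The median summed input count was 52 per unenriched region, and the counting error of the highest enrichment was 0.24 on the log2 scale at the median. The limit was within 2 such errors for 3110 unenriched regions (30.8%) and for 5185 of the 20709 regions with enrichment in at least 1 group. The nearest region inside was chromosome 16, 93711093 to 93711298, at 0.58 for Gata4 alone, followed by chromosome 8, 117502212 to 117502761, and chromosome 2, 70489977 to 70490181, at 0.58 each for Gata4 with all 3 factors. Just outside lay chromosome 10, 23513633 to 23513976, for Gata4 with all 3 factors, chromosome 15, 99788684 to 99789136, for Tbx5 with all 3 factors, and chromosome 15, 37859342 to 37859544, for Mef2c alone, at 0.59 each.

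**Figure D1:**
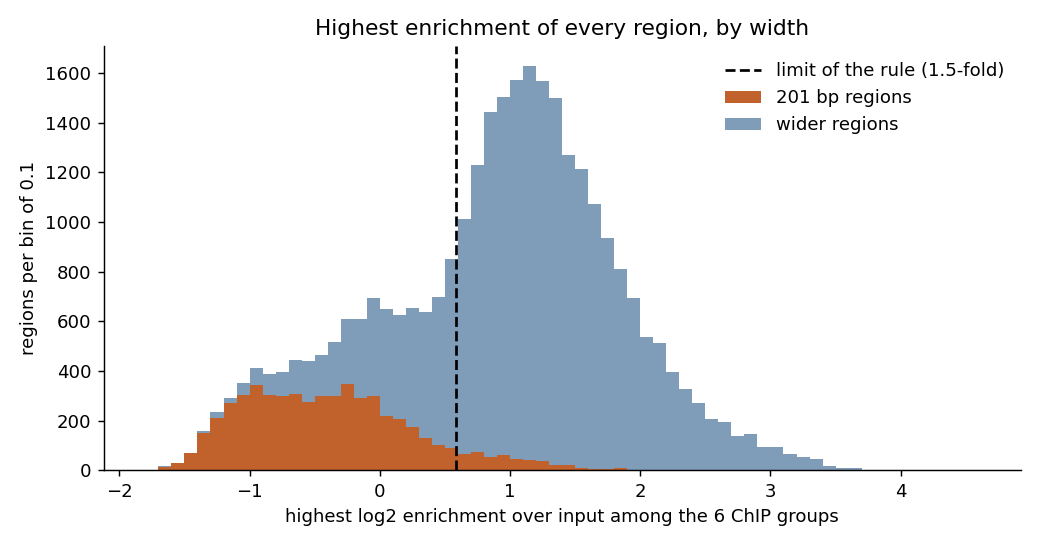
Histogram of the highest log2 enrichment over input among the 6 ChIP groups for all 30815 regions, in bins of 0.1, with regions of 201 bp in orange and wider regions in blue stacked above. The dashed line is the 1.5-fold limit, and the 10106 regions to its left are the unenriched regions. The counts pass the line without a gap, while 201 bp regions lie mostly below 0 and wider regions gather around 1.

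Library by library, the region nearest the limit was not cleanly separated from the inputs. At chromosome 16, 93711093 to 93711298, Gata4 alone libraries 1, 2 and 3 had 39.3, 35.5 and 35.2 CPM. The 6 inputs of cells with all 3 factors ran from 12.7 to 30.9 CPM, and the inputs of Gata4, Mef2c and Tbx5 alone had 31.3, 55.9 and 10.3. Every Gata4 alone library used by the rule thus lay above 8 of the 9 inputs and below the input of Mef2c alone. Number 4 had 22.4 CPM there. Gata4 with all 3 factors ran from 19.9 to 47.8 CPM, and Mef2c alone from 4.36 to 6.38.

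Unenriched regions were mostly narrow. Regions in the table are at least 201 bp wide, and 5505 had exactly that width. Of these, 5035 (91.5%) were unenriched, so that the narrowest class made up 49.8% of the unenriched regions and 17.9% of all regions. The share fell to 31.2% at 202 to 203 bp, 20.9% at 204 to 250 bp, 19.8% at 251 to 350 bp, 15.4% at 351 to 500 bp and 7.11% above that (109 of 1533). The median width was 202 bp for the unenriched regions and 262 bp for the enriched ones. How the regions were drawn is not given in the sources used here, so what a width of 201 bp stands for is unknown. The 470 enriched regions of 201 bp were enriched most often for Mef2c with all 3 factors (206), then for Tbx5 with all 3 factors (135) and Tbx5 alone (126), Gata4 alone (94), Gata4 with all 3 factors (68) and Mef2c alone (25), with some counted in several groups.

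Within the unenriched regions, width followed the number of groups that reached input. The 201 bp class made up 67.3% of the regions below input in all 6 groups, 26.3% of those at or above input in 1 group and 14.6% of those in 2. Median widths were 201, 206 and 242 bp in that order, and 257 bp with 3 groups. The 3 widest unenriched regions did carry ChIP counts near or above input in some groups. Chromosome 5, 145068138 to 145068932 (795 bp), had enrichments of 0.30 for Tbx5 and 0.16 for Gata4 with all 3 factors, and -2.39 for Mef2c alone. Chromosome 3, 102220048 to 102220811 (764 bp), had 0.44 for Gata4 with all 3 factors and -2.45 for Mef2c alone. Chromosome 5, 130657805 to 130658548 (744 bp), had 0.56 for Tbx5 alone and 0.43 for Tbx5 with all 3 factors, against -1.76 for Mef2c alone.

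Per region, input was nearly the same, with medians of 30.3 CPM for unenriched regions, 29.8 for enriched ones and 30.3 over all. Per kb, unenriched regions had more, with a median of 137.9 CPM, against 109.5 for the enriched regions and 118.9 over all, and their narrower width enters that measure. The share of regions that were unenriched went up at every step when regions were cut into 10 bins of equal size by input level, from 4.61% in the lowest bin (142 of 3082) to 67.4% in the highest (2078 of 3082). Input per region is the denominator of the rule, so this gradient is partly built in, and median width went from 272 bp to 203 bp over the same bins. Of the 16 regions with at least 300 CPM per kb of input, 15 were unenriched.

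**Figure D2:**
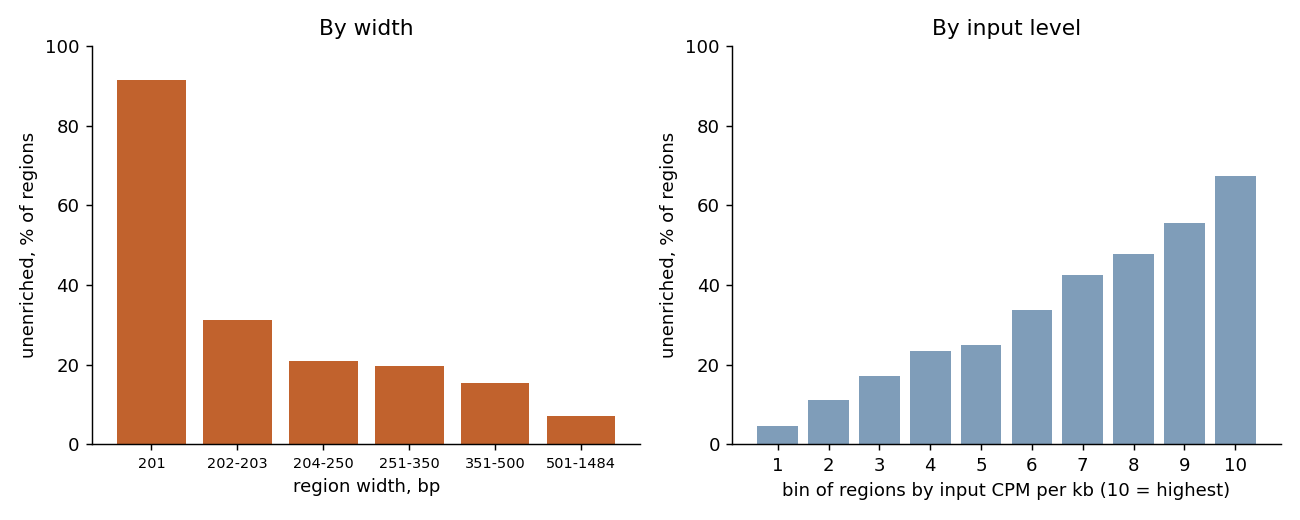
Percent of regions that were unenriched, by region width in bp (left) and by 10 bins of input CPM per kb from lowest to highest (right). The bars go from 91.5% at 201 bp down to 7.11% above 500 bp, and from 4.61% in the lowest input bin up to 67.4% in the highest.

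The 5 unenriched regions with the most input per kb formed 2 neighbouring pairs and a single region. On chromosome X, 166434920 to 166435175 had 938.8 CPM per kb and 166417917 to 166418386 had 908.5. At the first of these the inputs ran from 188.9 to 305.0 CPM, and all libraries of Gata4, Mef2c and Tbx5 with all 3 factors and of Gata4 and Mef2c alone lay below that range, at 32.6 to 148.1 CPM. Tbx5 alone had 195.7, 230.0 and 275.4 CPM, inside the range of the inputs. The second region was the flattest of the 5, with enrichments from -0.53 (Mef2c alone) to 0.23 (Gata4 with all 3 factors). There the inputs of the single-factor cells had 711.7, 519.2 and 882.3 CPM and those of cells with all 3 factors 261.4 to 471.3, so the 2 sets did not overlap. The log2 difference was 0.81 ± 0.29 (SE), which did not pass after adjustment over all regions (edgeR quasi-likelihood test, adjusted p = 0.875).

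On chromosome 2, the regions 77757143 to 77757404 and 77828299 to 77828584 had 892.8 and 864.8 CPM of input per kb, and their level differed strongly between inputs. At the first, inputs 1, 3 and 6 of cells with all 3 factors had 267.6, 269.3 and 314.2 CPM, while inputs 2, 4 and 5 had 33.7, 113.4 and 33.2. The inputs of Gata4 and Mef2c alone had 672.6 and 647.1 CPM and that of Tbx5 alone 174.4. The second region had 289.1, 305.2 and 271.9 CPM in inputs 1, 3 and 6 and 38.0, 144.3 and 43.1 in inputs 2, 4 and 5. In both regions, the inputs split into the same sets as by their chromosome Y counts given above, with number 4 the highest of its set. ChIP libraries of Gata4 with all 3 factors at the first region showed 54.5, 113.3 and 38.6 CPM for numbers 1, 3 and 6 and 15.6, 36.9 and 6.38 for numbers 2, 4 and 5. An unenriched label at these 2 regions therefore rests on a summed input that mixes high and low libraries.

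The fifth, chromosome 8, 72085371 to 72085571 (757.5 CPM per kb), was depleted in all groups, with its highest enrichment at -1.67 for Gata4 with all 3 factors. Its inputs had 101.7 to 195.8 CPM except for the input of Tbx5 alone at 20.5, and the ChIP libraries used by the rule had 14.5 to 88.8. Number 4 of Gata4 alone had 157.1 CPM there, within the range of the inputs.

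The lowest value of the highest enrichment, -1.72, was at chromosome 15, 17653983 to 17654183. In Gata4 with all 3 factors it had 3.68 to 23.9 CPM, in Mef2c alone 4.36, 4.13 and 5.31, and in Gata4 alone libraries 1 to 3 8.28, 3.38 and 6.60. The inputs of cells with all 3 factors had 30.9 to 120.8 CPM, and those of Gata4, Mef2c and Tbx5 alone 54.7, 47.9 and 0. Apart from the input of Tbx5 alone, in which no count was seen, all inputs lay above all ChIP libraries used by the rule. The next in this order, after the chromosome 8 region above, were also 201 bp wide, among them chromosome 10, 87908179 to 87908379, and chromosome 3, 70672971 to 70673171, with highest enrichments of -1.66 each.

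Few regions were at input level in all 6 groups. The flattest with at least the median input count was chromosome 7, 87919174 to 87919454 (281 bp), where the enrichments ran from -0.27 (Gata4 with all 3 factors) to 0.31 (Mef2c alone). Mef2c alone had 38.1, 43.4 and 41.4 CPM, Tbx5 alone 30.9, 38.8 and 21.2, and Gata4 with all 3 factors 11.0 to 51.1. The inputs had 8.43 to 74.9 CPM, so the spread between inputs covered every ChIP library at this region. The largest absolute enrichments of the next 4 flattest regions were 0.41 at chromosome 1, 59821712 to 59821939, 0.46 at chromosome 2, 60748867 to 60749315, 0.49 at chromosome 3, 122988733 to 122989000, and 0.49 at chromosome 19, 30020117 to 30020353.

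Each ChIP library put a smaller part of its counts into the unenriched regions than the inputs did, with 1 exception. The rule chose regions low in the sums of these libraries over the inputs, so this contrast is largely built in. The exception was the only ChIP library not used in choosing the unenriched regions. These regions held 13.4 to 20.9% of the counts of Gata4 with all 3 factors (17.4 ± 3.08%, SD, n = 5), 9.11 to 19.2% for Mef2c (12.6 ± 4.52%, n = 4) and 10.6 to 15.2% for Tbx5 (12.8 ± 1.99%, n = 4). Alone, Gata4 libraries 1, 2 and 3 had 20.0, 17.2 and 17.7%. Mef2c alone had 10.1, 9.66 and 9.57% and Tbx5 alone 13.0, 12.4 and 13.5%. Number 4 of Gata4 alone, again by its label, had 31.0% (95% Wilson interval 30.8 to 31.2%, which covers counting error only), among the inputs at 26.9 to 34.9%. Mef2c with all 3 factors number 2, at 19.2%, stood above the other 3 of its group, at 9.11 to 11.5%, and was the shallowest of them with 383071 counts. Replicates of Mef2c alone and of Tbx5 alone stood within 1.1 percentage points of each other, whereas those of all groups with all 3 factors spread over 4 points or more.

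**Figure D3:**
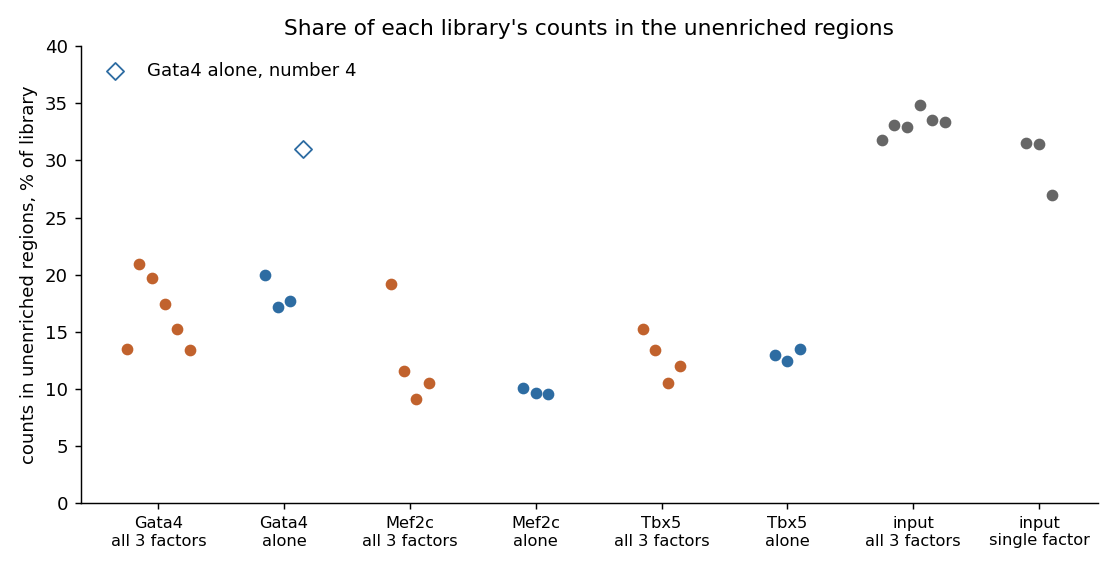
Percent of each library's counts that fell in the unenriched regions, 1 point per library, by ChIP group and for the inputs (grey). ChIP libraries lie between 9.11% and 20.9% and inputs between 26.9% and 34.9%, and the open diamond, the library labelled Gata4 alone number 4, is at 31.0%. The lower share of the ChIP libraries used by the rule follows largely from the choice of regions.

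The level at which a region counts as unenriched depends on where input is placed. Regions of 201 bp, whether unenriched or not, had median enrichments of -1.12 and -1.12 for Gata4 with all 3 factors and alone, -1.70 and -1.87 for Mef2c, and -1.45 and -1.19 for Tbx5. If each group is scaled so that this class sits at 0, a choice made after seeing the data, 1927 of the 10106 regions (19.1%) stay below the limit in all 6 groups. A further 4969 (49.2%) then pass it in exactly 1 group, 1391 in 2, 1042 in 3, 541 in 4, 168 in 5 and 68 in 6. Of the 6 groups, Gata4 alone (3396 regions) and Mef2c alone (2988) passed most often on that scale, against 1868 to 2103 for each of the others. Scaling with TMM factors left 5165 regions and DESeq2 size factors 4009, all of them among the 10106.

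The regions that pass in a single group on the scale set to the 201 bp class were uneven between groups. Gata4 alone had 2247, Mef2c alone 1693 and Tbx5 alone 787, but Mef2c, Gata4 and Tbx5 with all 3 factors had 159, 50 and 33. At the 2247 regions of Gata4 alone the median was 1.12 in that group and 0.03 for Gata4 with all 3 factors, and it was between -0.43 and -0.18 in the other groups. At the 1693 of Mef2c alone the median was 1.29, with 0.21 for Mef2c with all 3 factors and -0.37 to -0.18 in the rest. At the 787 of Tbx5 alone it was 1.04, with 0.15 for Tbx5 with all 3 factors and -0.29 to -0.11 elsewhere. Over all unenriched regions the medians for Gata4, Mef2c and Tbx5 with all 3 factors were 0.03, 0.07 and -6.19e-04, so that the value for Gata4 was the same at this precision. These classes were chosen on the same values, and all groups share the same inputs. The single-factor groups are shallower, with a median of 33 to 52 counts per region over the libraries of the group. Each class leaves out regions that pass in another group, which caps its medians there, while the medians over all unenriched regions are not capped. Without that exclusion, 18.0% of regions past the limit for Gata4 alone also passed with all 3 factors, beside 19.1% of all unenriched regions. For Mef2c these shares were 28.8% and 20.8%, and for Tbx5 37.5% and 19.9%. The library labelled Gata4 alone number 4, which the rule did not use, had a median log2 enrichment of -0.35 on the original scale at the 2247 regions of Gata4 alone and -0.10 over all unenriched regions.

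**Figure D4:**
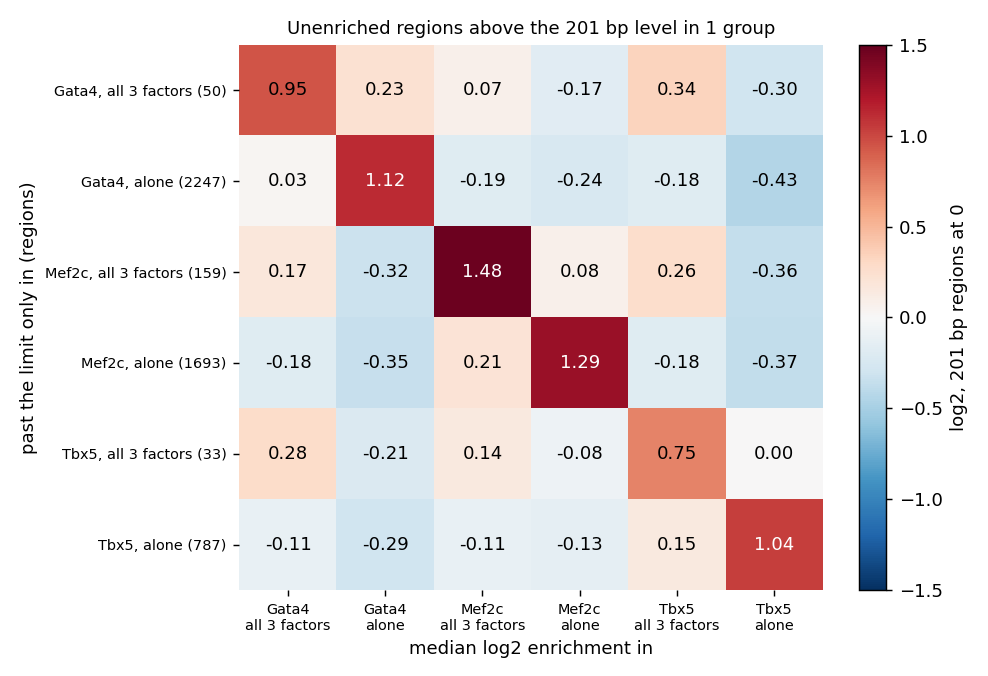
Median log2 enrichment in each ChIP group (columns), on the scale that puts 201 bp regions at 0, for unenriched regions that pass the limit on that scale in a single group (rows, number of regions in brackets). High diagonal values follow from the choice, and values off the diagonal are capped by it. The 2247, 1693 and 787 regions of Gata4, Mef2c and Tbx5 alone have medians of 0.03, 0.21 and 0.15 for the same factor with all 3 factors. Over all unenriched regions, where no such cap applies, these medians are 0.03, 0.07 and -6.19e-04.

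The study's question of how a factor's binding differs when the other factors are present can be put to these regions only as a description, since both groups of each comparison entered the rule. Each comparison used edgeR's quasi-likelihood test over all regions, with calls at an adjusted p under 0.05. Regions with few counts were left out, so those tested are the ones with the most ChIP counts and not all members. Gata4 was tested at 4658 of the 10106 regions, with 543 called higher with all 3 factors and 1431 lower. Over all 20759 regions tested, 16.5% were called higher and 15.2% lower. With no filter on low counts, all 10106 regions were tested, with 641 called higher and 1880 lower, beside 3440 and 3246 over all regions. Without the library labelled Gata4 alone number 4 the calls were 1258 higher and 1883 lower, 3141 in place of 1974. Calls over all regions moved likewise, from 6589 to 11045 (5943 higher and 5102 lower of 21524). Leaving out Gata4 alone number 1 or number 2 gave 1213 or 1080 in all, beside 4109 or 3680 over all regions.

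Mef2c was tested at 4129 unenriched regions, with 1273 called higher with all 3 factors and 1613 lower, beside 31.3% higher and 28.8% lower over all 19391 regions tested. The majority turned under library totals, to 1415 higher and 1223 lower, beside 7566 and 4256 over all regions, whose median log2 fold change moved from 0.15 to 0.47. It also turned in the fit with a replicate block, to 1341 higher and 1021 lower, beside 5291 and 4924 over all regions. With no filter on low counts, all 10106 unenriched regions were tested, with 1031 higher and 2173 lower. Over all regions that fit gave 4419 higher and 7001 lower. Tbx5 was tested at 2528, with 578 higher and 574 lower, beside 18.8% and 14.9% of 16395. Its even split changed with the libraries used and with the filter, while over all regions higher calls stayed the more frequent in each fit. With no filter on low counts, 603 of the 10106 regions were called higher and 847 lower, beside 3023 and 2382 over all regions. The calls were 744 higher and 553 lower without Tbx5 with all 3 factors number 4, beside 3765 and 2881 over all regions. Lower calls were the more frequent without number 2 (409 and 652), 3 (385 and 452) or 5 (366 and 426) of that group. Over all regions these fits gave 2609 and 2002, 2534 and 1802, and 2419 and 1706. Lower calls also led without Tbx5 alone number 1 (344 and 484), 2 (398 and 594) or 3 (397 and 497). Over all regions those fits gave 2149 and 1885, 2149 and 1813, and 2115 and 1720. They tested 4469, 4552 and 4395 unenriched regions in place of 2528. A replicate block gave 569 and 388, beside 2860 and 2004. With only libraries 2, 4 and 5 of the cells with all 3 factors, the totals were 918 for Gata4, 2395 for Mef2c and 837 for Tbx5, beside 3848 of 19399, 10452 of 17535 and 4336 of 14546 over all regions tested. With only 1, 3 and 6 the Gata4 total was 819, beside 2864 of 22571. Libraries 1, 3 and 6 include only 1 each of Mef2c and Tbx5, so no such total is given for them. At the 2 chromosome 2 regions with high input, fitted log2 fold changes were negative for all 3 factors. At 77757143 to 77757404 they were -1.55 ± 0.50 (SE) for Gata4, -1.98 ± 0.43 for Mef2c and -2.90 ± 0.60 for Tbx5, and at 77828299 to 77828584 they were -1.06 ± 0.50, -2.37 ± 0.45 and -2.30 ± 0.58. All but that of Gata4 at 77828299 to 77828584 were among the calls counted above. They are given as descriptions, since both groups entered the rule, and at regions where the inputs differed as given above.

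The difference between inputs was not used by the rule as such, although the summed input was, and 79.6% of it came from cells with all 3 factors. A region that was high by chance in those inputs was thus more likely to be selected. The unenriched regions held 32.5, 33.8 and 33.3% of the counts of the 3 input samples with all 3 factors (33.2 ± 0.664%, SD, n = 3) and 31.5, 31.5 and 26.9% of the Gata4, Mef2c and Tbx5 single-factor inputs (30.0 ± 2.63%, n = 3). The difference of the means was -3.21 percentage points, and -1.69 points without the input of Tbx5 alone. Since the selection favours this direction, no test is given for it. That input held 9.50% of its counts in unenriched regions of 201 bp, where the other inputs held 13.1 to 15.8%.

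Region by region, no input difference passed the test. edgeR called 0 of 10098 unenriched regions tested between cells with a single factor and cells with all 3 factors, where 0% of the 30441 regions tested were called. At an unadjusted p under 0.05 there were 774 unenriched regions and 1653 regions in all. DESeq2 also called 0, with 232 at an unadjusted p under 0.05. The median log2 difference, single factor over all 3 factors, was -0.22 for the unenriched regions and -0.05 over all regions. The selection favours a negative difference at the unenriched regions, since most of the summed input came from cells with all 3 factors. It also bears on their unadjusted counts. An alternative added later kept only inputs 2, 4 and 5 of the cells with all 3 factors, summed into 1 sample. In that fit, chromosome 2, 77757143 to 77757404, was higher in the single-factor inputs by 3.21 ± 0.57 (log2, SE). Inputs 2, 4 and 5 were already seen to be low there, so the difference is largely built in. Here the lone sample is assumed to vary like the others. The inputs are shallow, with a median of 2 to 10 counts per unenriched region and library. No single factor has a replicate input, so the inputs of the 3 different factors served as replicates.

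Summed over whole chromosomes, the inputs did separate on some, in the unenriched regions as over all regions. The share of input counts in unenriched regions that fell on a chromosome did not overlap between the 2 sets of cells on 7 of 20 chromosomes. Over all regions it was also 7 of 20 (35.0%), the same chromosomes in the same directions. The separation is thus not particular to the unenriched regions. Chromosome 8 held 6.81, 7.87 and 6.62% in the input samples 1 and 3, 2, 4 and 5, and 6 with all 3 factors, and 6.06, 6.30 and 5.92% in those of Gata4, Mef2c and Tbx5 alone. On chromosome 15 these were 7.53, 7.90 and 7.52% against 6.59, 6.59 and 6.83%. The single-factor inputs were higher on chromosomes 5, 9, 12, 13 and X, with ratios of means of 1.12, 1.11, 1.18, 1.15 and 1.25. Over all regions these ratios were 1.08, 1.08, 1.15, 1.13 and 1.14. Each of the 7 had the smallest exact permutation p that 3 against 3 allow, 0.10, and 0.286 after Benjamini-Hochberg adjustment over 20 chromosomes, so none passed. Inputs also differed within the cells with all 3 factors, as on chromosome 4, with 4.71% in inputs 2, 4 and 5 against 4.09% in 1 and 3 and 4.00% in 6. The factors introduced and any other difference between these cell populations cannot be told apart here, since each set of cells has its own inputs.

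**Figure D5:**
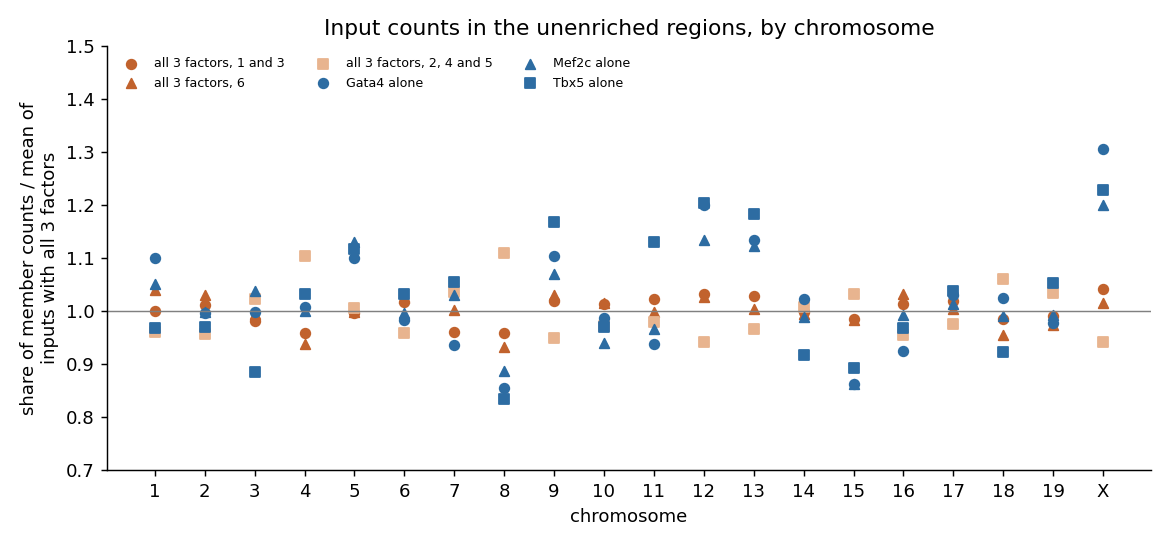
Share of each input sample's counts in unenriched regions that fell on a chromosome, divided by the mean of the 3 input samples with all 3 factors, for chromosomes 1 to 19 and X. Single-factor inputs (blue) lie below all inputs with all 3 factors (orange) on chromosomes 8 and 15 and above them on 5, 9, 12, 13 and X. The same chromosomes separate in the same directions over all regions.

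Unenriched regions lay on chromosomes 1 to 19 and X, but not evenly. Chromosome 15 had the largest share of its regions unenriched, at 42.1% (630 of 1498), followed by chromosome 8 at 39.1% (640 of 1637), and chromosome X had the smallest above 0, at 17.0% (104 of 611). Chromosome 7 had 21.4% (297 of 1391), and on chromosome Y it was 0 of 5. The median input of all regions on these chromosomes was 153.8 CPM per kb on 15, 142.3 on 8, 89.2 on 7 and 62.8 on X. Over chromosomes 1 to 19 and X the 2 quantities went together, with Pearson's r of 0.91 and Spearman's rho of 0.82 (n = 20). Both contain the input counts, so the relation is given as a description. Among regions wider than 201 bp, 28.1% on chromosome 15 and 9.39% on chromosome X were unenriched.

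Along the chromosomes, unenriched regions lay farther from their neighbours. The nearest region of any kind was 19.2 kb away at the median, against 10.5 kb for enriched regions, and it was within 1 kb for 7.34% of unenriched and 17.9% of enriched regions. The nearest region was itself unenriched for 40.6% of the unenriched regions and 26.3% of the enriched ones. They formed 5987 runs of consecutive unenriched regions, of which 3749 were of a single region and 18 of at least 10. The longest runs held 19 regions over 5873 kb of chromosome 15 from 44700960 to 50573577, 18 regions over 3948 kb of chromosome 15 from 14791466 to 18739554, and 17 regions over 3687 kb of chromosome 8 from 51427328 to 55114129. The first region of the longest run, 44700960 to 44701231, had 46.4 to 79.6 CPM in the inputs with all 3 factors and 15.6, 24.0 and 61.6 in those of Gata4, Mef2c and Tbx5 alone. Mef2c alone had 27.2, 38.2 and 36.1 CPM there, above 2 of the 3 single-factor inputs, and an enrichment of -0.65 over the sum of all inputs. The first regions of the other 2 runs had highest enrichments of -0.88 and -0.90. No sequence or gene is given for any region, as no genome of the mm9 build was at hand.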

How the data were processed

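Read counts per region were deposited by the authors as unnormalised whole numbers in 1 table of 33 libraries. The submitters' processing notes name FastQC, Bowtie2 2.2.4, featureCounts and mm9. The sources used here do not give duplicate handling or the choice of regions. The regions and lists were chosen with earlier results of these data known. Libraries were summed into 1 sample where a chi-square test over regions with at least 5 expected counts found no difference. Tests used edgeR 4.0.16 (R 4.3.3; quasi-likelihood, robust, TMM, minimum count 10 and minimum total 15; for inputs, at least 20 counts over the inputs) and Benjamini-Hochberg adjustment over all regions tested. DESeq2 1.42.0 was an alternative. The script was tested on simulated data. All tests were two-sided. p-values measure the spread between these samples, with summed libraries as 1 sample. In the input test the spread of the single-factor inputs includes any difference between factors. Named regions were those with the highest input per kb (5), lowest highest enrichment (5), nearest to the limit (3 on each side), flattest (5), widest (3), called between inputs (none in the main test) and first of the 3 longest runs.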

Additional observations from a re-analysis of the deposited data

Results flagged for a closer look

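In 5 groups of 4 to 6 samples, the share of counts in the unenriched regions was searched for a sample far from the others. The input of Tbx5 alone, at 26.9%, stood apart from the other 5 input samples by 0.662 of the whole range, more than the 95% limit for 6 samples. Chance alone flags about 1 in 20 groups.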

How the results depend on the processing

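The number of unenriched regions was 10106 as reported. It moved to 15429 with a limit of 1, 5165 with TMM scaling, 4009 with DESeq2 size factors and 1927 with 201 bp regions set to 0, the last chosen after seeing the data. The other settings tried (pseudocounts of 1, 2 and 10 CPM, a limit of 0.5, matched inputs, number 4 of Gata4 alone included, an input minimum of 20 counts, mean CPM) gave 9012 to 10707. Inputs matched to the cells gave 9012, and 8614 of the 10106 regions (85.2%) were among them. Leaving out each of 32 libraries gave 9975 to 10305 and kept 97.7 to 99.8% of the regions. Calls between inputs were 0 in all settings with more than 1 sample in each set of cells. The fit with inputs 2, 4 and 5 only leaves 1 sample in a set, so no count is given for it. Leaving out each sample in turn gave 0 for inputs, 1080 to 3141 calls for Gata4, 2213 to 2860 for Mef2c and 792 to 1297 for Tbx5. Calls over all regions moved as well, with 3680 to 11045 for Gata4, 9732 to 12020 for Mef2c and 3835 to 6646 for Tbx5. The Gata4 count of 1974 became 819 with libraries 1, 3 and 6 only and 918 with 2, 4 and 5 only, alternatives added later. Over all regions the Gata4 count of 6589 became 2864 and 3848 in these fits. Same-numbered samples of a factor alone and of that factor with all 3 factors deviated together with r from -0.206 to 0.177 for Gata4. For Mef2c r was -0.0121 to -0.00603 and for Tbx5 -0.0884 to 0.00651. Differently numbered samples of Gata4 had r from -0.366 to 0.37. Same-numbered samples thus did not deviate together more than others for Gata4, but pairs this few cannot exclude that the numbers pair samples. Numbers within the cells with all 3 factors were not compared in this way. With a replicate block the calls were 1299 for Gata4, 2362 for Mef2c and 957 for Tbx5, beside 4641, 10215 and 4864 over all regions. The input share difference of -3.21 points was -3.29 with every library as its own sample, which counts libraries that agree within noise as separate, and ranged from -3.98 to -1.69 with each sample left out. The median enrichment of the library labelled Gata4 alone number 4 was -0.10, and 0.044 against the single-factor inputs only. The causes of these changes were not tested.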
